A study of Homo sapiens with 32 samples.

Results

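ETS transcription factors were followed in LNCaP cells, with *ETV1*, *ETV4*, and *ETV5*, the PEA3 subfamily, set against *ETS1*, *ETS2*, *ELF3*, *EHF*, and *ERF*. The 8 genes were taken by symbol from tables of 25498 gene symbols, and all 8 were among the 16995 genes with enough counts to be tested. LNCaP is an androgen-sensitive prostate cancer line that was derived from a metastasis in a lymph node. RNA was sequenced from 8 groups of 4 libraries, with 2 libraries of each group in each of 2 batches. One group grew with fetal bovine serum (FBS). In the 7 remaining groups, serum was exchanged on the day before treatment for charcoal-stripped serum (CSS), which is poor in steroid hormones, and cells then stayed untreated or received 100 ng/mL of epidermal growth factor (EGF) or neuregulin 1 (NRG-1) for 5 minutes, 1 hour, or 4 hours. All groups are of 1 cell line, 1 untreated CSS group served for all times, and no library of cells in FBS with a ligand was analysed here.

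ETS factors share a DNA-binding domain that reads sites with a GGAA core. EGF binds EGFR and NRG-1 binds HER3 and HER4, and these receptors can pair with HER2 and pass a signal through the RAS-ERK cascade to the nucleus. PEA3 factors act near the end of that cascade, since ERK phosphorylates them, the repressor CIC holds their genes silent until ERK releases it, and the COP1 ubiquitin ligase removes their proteins. *ERF* encodes an ETS repressor that ERK expels from the nucleus, *ELF3* and *EHF* encode factors of epithelial cells, and *ETS1* and *ETS2* encode the founding members of the family. In LNCaP the *ETV1* locus has been moved to another chromosome, next to *MIPOL1* and *FOXA1*, so that its RNA level in these cells is that of a rearranged gene. The rearranged and the intact copies of *ETV1* cannot be told apart in counts per symbol.

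The DNA before the start of 4 of these genes is shown because 3 of them (*ETS2*, *ELF3*, and *ERF*) rose together at 1 hour and *ETV1* did not. Each sequence is the 250 bases before the most upstream start listed by RefSeq for that gene, read 5′ to 3′ on the gene's strand (GRCh38.p14). Capitals mark matches to the motifs searched. They are the CIC octamers TGAATGAA and TGAATGGA, the ETS core CCGGAA, the AP-1 site TGACTCA, the cAMP response element TGACGTCA, and the CArG box of serum response factor.
ETV1, chr7:13991426-13991675, minus strand: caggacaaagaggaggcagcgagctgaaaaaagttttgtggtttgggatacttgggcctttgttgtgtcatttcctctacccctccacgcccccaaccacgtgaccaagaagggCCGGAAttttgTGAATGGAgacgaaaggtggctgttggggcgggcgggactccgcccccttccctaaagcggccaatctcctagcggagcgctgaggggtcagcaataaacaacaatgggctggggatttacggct
ETS2, chr21:38804933-38805182, plus strand: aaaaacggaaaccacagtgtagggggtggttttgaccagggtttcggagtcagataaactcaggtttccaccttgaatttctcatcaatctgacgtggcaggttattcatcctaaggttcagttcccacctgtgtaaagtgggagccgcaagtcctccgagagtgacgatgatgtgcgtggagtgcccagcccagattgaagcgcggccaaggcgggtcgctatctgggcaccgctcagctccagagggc
ELF3, chr1:202010337-202010586, plus strand: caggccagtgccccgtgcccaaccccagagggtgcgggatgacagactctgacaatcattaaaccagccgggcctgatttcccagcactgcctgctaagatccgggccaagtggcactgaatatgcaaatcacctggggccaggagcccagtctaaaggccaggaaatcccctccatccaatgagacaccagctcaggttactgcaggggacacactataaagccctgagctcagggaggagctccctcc
ERF, chr19:42255129-42255378, minus strand: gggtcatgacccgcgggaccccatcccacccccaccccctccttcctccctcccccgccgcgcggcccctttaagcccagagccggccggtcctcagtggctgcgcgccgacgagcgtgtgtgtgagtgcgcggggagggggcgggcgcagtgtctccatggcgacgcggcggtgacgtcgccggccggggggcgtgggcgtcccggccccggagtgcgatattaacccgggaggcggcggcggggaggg
Both strands were searched, and no 2 matches overlapped. The *ETV1* window held 1 CIC octamer, TGAATGGA, whose last base lay 118 bases before the start, and 1 ETS core, CCGGAA, which ended 131 bases before it. Of all 34943 windows of the same length, 0.818% held TGAATGGA and 14.5% held the ETS core. The windows of *ETS2*, *ELF3*, and *ERF* held none of these letters, nor did that of *EHF*, which is not printed. RefSeq gave 6 windows for *ETV1*, 3 for *ERF*, 2 for *ETS2*, 2 for *EHF*, and 1 for *ELF3*. Only the most upstream window of each gene was searched, and which start LNCaP cells use was not tested. The other motifs were found in 1.40% (TGAATGAA), 4.22% (AP-1), 1.63% (cAMP response element), and 1.16% (CArG box) of all windows. These matches are descriptions of the letters and not binding sites.

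Library depth ranged from 63822654 to 92401724 expected counts, with a median of 77866194. The markers of luminal prostate cells were all detected, with summed levels of 3023 to 6057 TPM per library, and those of basal, fibroblast, leukocyte, endothelial, and neuroendocrine cells summed to at most 5.00 TPM. Levels of 1 gene across groups are given in CPM, which scales counts to the TMM-adjusted library size. Genes are compared with each other in TPM, which also corrects for transcript length. Fold changes are on the log2 scale from 1 quasi-likelihood fit in edgeR with a term for the batch. A gene passed where its *P* value, adjusted by Benjamini and Hochberg over all genes tested, lay below 0.05, and it is said to have passed the 2-fold limit where its log2 fold change also lay beyond 1. Sources do not say whether libraries of a group came from separate cultures, apart from a label of biological replicate, so that *P* values measure the spread between these libraries, which may be technical. In bulk RNA, fewer cells that express a gene and less of its RNA per cell cannot be told apart.

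In CSS the 3 PEA3 genes stood at very different levels. *ETV1* had 87.8 ± 5.53 TPM (SD, n = 4), *ETV5* had 0.415 ± 0.139 TPM, and *ETV4* had 0.0625 ± 0.0330 TPM. *ETV1* made up 99.5% ± 0.124 of the summed TPM of the 3 genes and ranked 2 of the 28 ETS genes in the table, behind *EHF* at 143.8 ± 13.2 TPM. *ETV5* ranked 20 and *ETV4* ranked 24. Of the other members, *ERF* (21.3 ± 2.26 TPM) and *ELF3* (19.4 ± 1.39 TPM) lay in the middle of the family, and *ETS2* (4.86 ± 0.463 TPM) and *ETS1* (0.655 ± 0.0580 TPM) lay lower.

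Between 1 hour and 4 hours the 3 PEA3 genes rose and the other 5 members fell, with either ligand. Further ETS genes, given below, went both ways. All 8 genes passed in both comparisons, where 44.0% of all genes tested passed with EGF and 37.5% with NRG-1. With EGF, the log2 fold changes from 1 hour to 4 hours were 6.01 for *ETV4*, 2.52 for *ETV5*, and 0.43 for *ETV1*, against -0.87 for *EHF*, -0.81 for *ELF3*, -0.80 for *ETS1*, -0.47 for *ERF*, and -0.43 for *ETS2*. With NRG-1 they were 6.60, 2.47, and 0.41 for the PEA3 genes in the same order, and between -0.73 (*EHF*) and -0.21 (*ETS2*, adjusted *P* = 0.0241) for the others. The fall of *ETS2* with NRG-1 depended on single libraries. Its adjusted *P* value was 0.101 without batch 2 replicate 1 of NRG-1 1 hour, 0.102 without batch 2 replicate 2 of NRG-1 4 hours, and 0.444 and 0.0888 in batch 1 and batch 2 alone. In batch 2 alone, the falls of *ETS1* (-0.35, adjusted *P* = 0.193) and *ELF3* (-0.19, adjusted *P* = 0.148) with NRG-1 and of *ETS2* with EGF (-0.36, adjusted *P* = 0.0569) did not pass either.

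**Figure D1:**
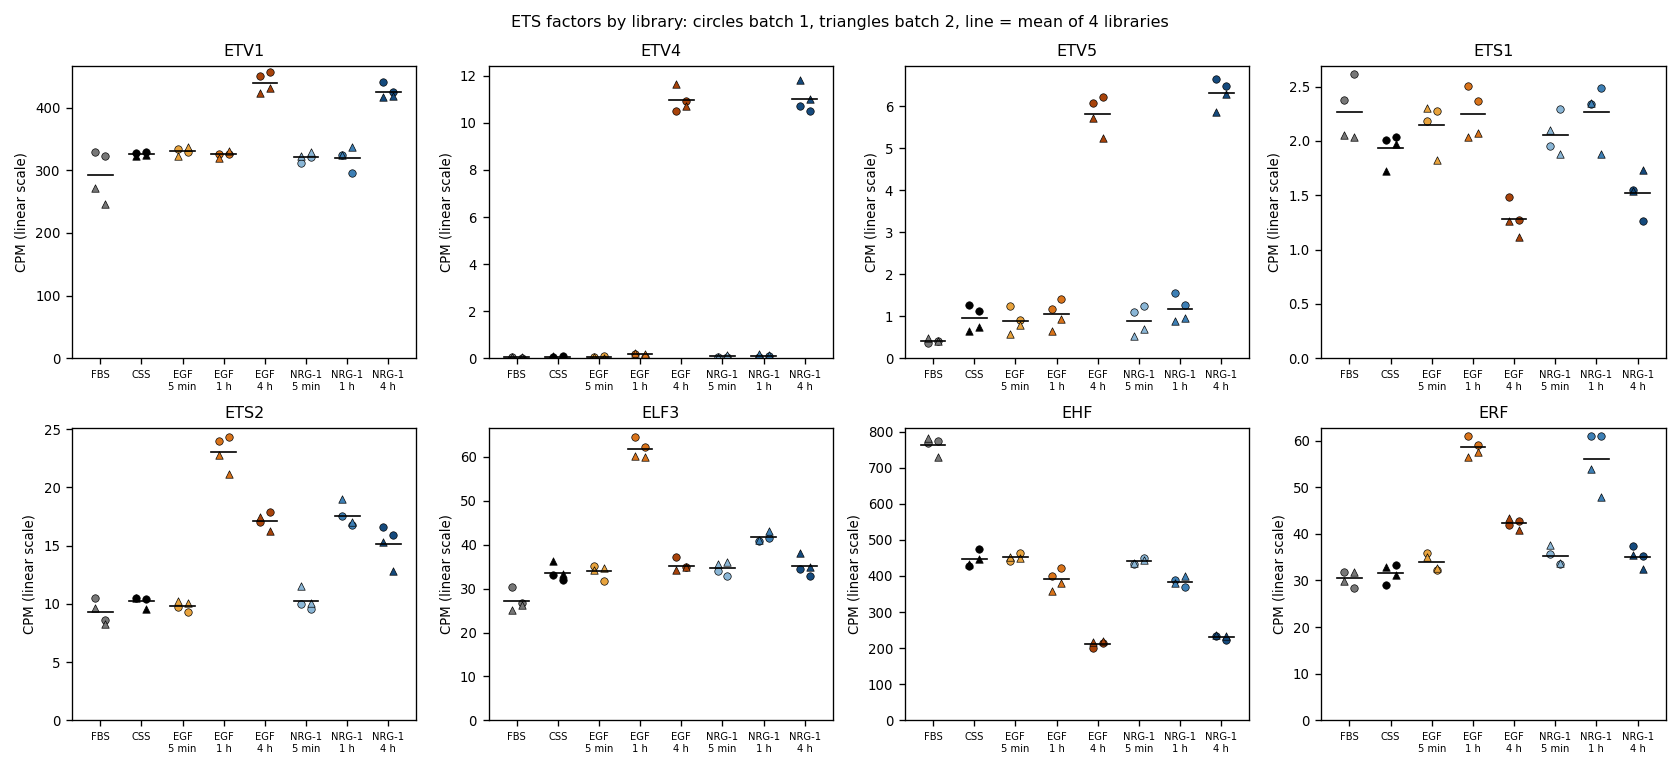
CPM on a linear axis of the 8 ETS genes in each of the 32 libraries, by group, with circles for batch 1, triangles for batch 2, and a line at the mean of 4 libraries. *ETV1*, *ETV4*, and *ETV5* are high at 4 hours of either ligand, *ETS2*, *ELF3*, and *ERF* peak at 1 hour, and *EHF* is highest in FBS and lowest at 4 hours.

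*ETV4* showed the largest change of the 8 genes. Its 4 CSS libraries held 3, 6, 10, and 4 counts, which is 0.0363 to 0.111 CPM. After 1 hour of EGF they held 16, 5, 19, and 11 counts. After 4 hours of EGF the libraries stood at 10.5, 10.9, 11.7, and 10.7 CPM (738, 961, 926, and 699 counts). After 4 hours of NRG-1 they stood at 10.7, 10.5, 11.8, and 11.0 CPM. The 8 libraries at 4 hours therefore lay far above every other library of the series, whose highest held 19 counts.

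Against CSS, the log2 fold change of *ETV4* at 4 hours was 7.25 with EGF (SE 0.24, adjusted *P* = 6.62e-20) and 7.26 with NRG-1 (SE 0.24, adjusted *P* = 1.31e-19), or 153-fold with either ligand. This fold is set against only 23 counts over the 4 CSS libraries. In limma on log2(TPM + 1), a scale that compresses changes of low genes, *ETV4* still passed with 3.21 and 3.19. Within batch 1 alone it was 7.46 with EGF and 7.45 with NRG-1, and within batch 2 alone 7.11 and 7.13. At 1 hour of EGF the log2 fold change was 1.24 (SE 0.40, adjusted *P* = 0.0445), and with NRG-1 it was 0.66 (SE 0.42, adjusted *P* = 0.478). The call at 1 hour of EGF was lost when any of 6 of the 8 libraries was left out (2 of CSS in batch 1, 1 of CSS in batch 2, and 3 of EGF), with adjusted *P* values from 0.0534 to 0.189. It was also lost in each batch alone (adjusted *P* = 0.235 and 0.240).

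*ETV5* was the other PEA3 gene that rose by more than 2-fold. Its CSS libraries stood at 1.27 and 1.13 CPM in batch 1 and at 0.653 and 0.741 CPM in batch 2. After 4 hours of EGF they were at 6.09, 6.22, 5.72, and 5.25 CPM, and after 4 hours of NRG-1 at 6.65, 6.48, 5.86, and 6.28 CPM. Every library at 4 hours lay above every library of the other 6 groups. *ETV5* rose by 2.65 on the log2 scale with EGF (SE 0.17, adjusted *P* = 9.88e-14) and 2.77 with NRG-1 (SE 0.17, adjusted *P* = 5.63e-14). On log2(TPM + 1) in limma, *ETV5* passed with 1.27 and 1.33. Its values at 1 hour were 0.13 (adjusted *P* = 0.792) and 0.30 (adjusted *P* = 0.417), and the libraries overlapped with CSS.

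The level of *ETV5* also differed between the batches in the fit over all groups, by -0.45 in batch 2 against batch 1 (log2, adjusted *P* = 7.69e-05). FBS did not share this shift. Its means were 0.388 CPM in batch 1 and 0.445 CPM in batch 2, with overlap, whereas those of CSS were 1.20 and 0.697 CPM. At 4 hours its log2 fold change was 2.35 in batch 1 and 3.00 in batch 2 with EGF, and 2.44 and 3.14 with NRG-1.

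*ETV1*, already abundant, rose by a smaller factor. Its CSS libraries lay close together at 327.2, 329.9, 323.1, and 325.2 CPM. After 4 hours of EGF they were at 450.3, 456.4, 423.1, and 430.7 CPM, and after 4 hours of NRG-1 at 441.1, 424.4, 416.3, and 418.5 CPM. Here too the 8 libraries at 4 hours lay above all others. *ETV1* rose by 0.43 on the log2 scale with EGF (SE 0.06, 1.35-fold, adjusted *P* = 4.25e-07) and 0.38 with NRG-1 (SE 0.06, adjusted *P* = 4.09e-06), and it was 0.46 and 0.39 in batch 1 and 0.42 and 0.38 in batch 2. At 1 hour its log2 fold changes were -0.00 with EGF and -0.03 with NRG-1, with adjusted *P* values of 0.998 and 0.877.

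In TPM *ETV1* gained the most of the 3 genes, from 87.8 to 113 ± 4.06 TPM with EGF and to 108 ± 10.8 TPM with NRG-1. *ETV4* reached 8.85 ± 0.698 and 8.70 ± 0.943 TPM, and *ETV5* reached 2.40 ± 0.206 and 2.56 ± 0.258 TPM. *ETV1* thus still held 91.0% ± 0.494 of the summed PEA3 TPM after 4 hours of EGF and 90.5% ± 0.370 after NRG-1. The rank of *ETV1* among the 28 ETS genes went from 2 to 1, that of *ETV4* from 24 to 12, and that of *ETV5* from 20 to 17, with either ligand.

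The share of the 3 PEA3 genes in the summed TPM of the family was 17.6% ± 0.258 in CSS. It was 27.6% ± 0.679 after 4 hours of EGF, 27.2% ± 0.408 after 4 hours of NRG-1, and 12.6% ± 1.21 in FBS. The share of *EHF* went the other way, from 28.6% ± 0.808 in CSS to 14.4% ± 0.601 with EGF and 16.0% ± 0.327 with NRG-1 at 4 hours, and was 39.4% ± 1.16 in FBS. These shares describe RNA and were not tested.

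**Figure D2:**
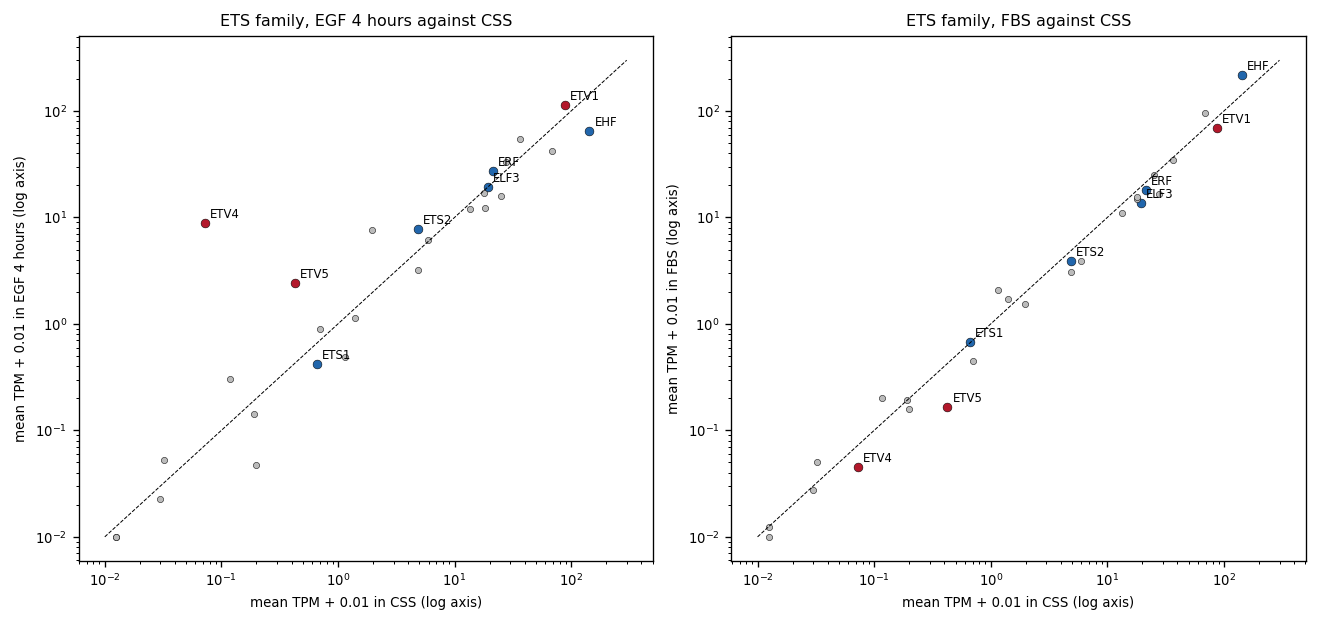
Mean TPM (n = 4, plus 0.01, log axes) of the 28 ETS genes in CSS on the horizontal axis, against 4 hours of EGF (left) and FBS (right), with PEA3 genes in red, the other 5 members in blue, further ETS genes in grey, and a dashed line of equal level. *ETV4* moves from 0.0625 to 8.85 TPM with EGF, and *EHF* lies below the line with EGF and above it in FBS.

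**Figure D3:**
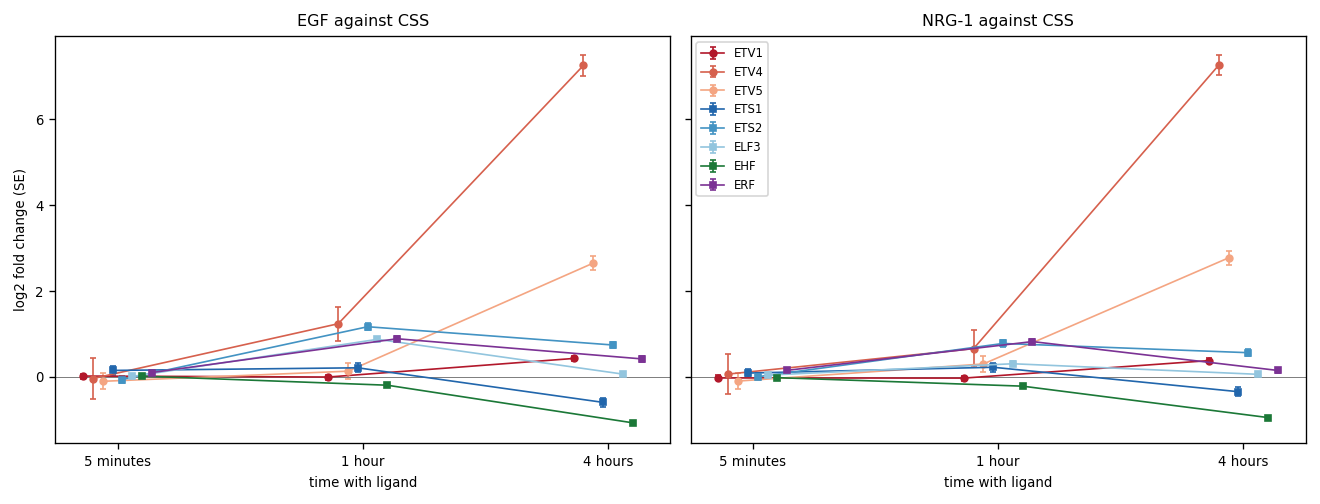
Log2 fold change against CSS (SE bars) of the 8 genes at 5 minutes, 1 hour, and 4 hours of EGF (left) or NRG-1 (right), with circles for PEA3 genes and squares for the other 5. At 5 minutes all points lie near 0, and *ETV4* reaches 7.25 with EGF and 7.26 with NRG-1 at 4 hours.

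At 5 minutes none of the 8 genes passed with either ligand, where 0.00588% of all genes passed with EGF and 0% with NRG-1. The log2 fold changes lay between -0.10 and 0.15 with EGF, and between -0.10 and 0.15 with NRG-1. Without adjustment in edgeR, 0 of the 8 would pass at 0.05 with EGF and 1, *ERF*, with NRG-1, beside 251 and 324 of all genes. DESeq2 also called 0 of them past the 2-fold limit.

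At 1 hour of EGF, 5 of the 8 genes passed (*ETS2*, *ELF3*, *ERF*, and *ETV4* higher, *EHF* lower), against 9.51% of all genes. Of these, *ETS2* and *ETV4* passed the 2-fold limit, against 1.72% of all genes. At 1 hour of NRG-1, 4 of the 8 passed (*ETS2*, *ELF3*, and *ERF* higher, *EHF* lower), against 6.73% of all genes. None of them passed the 2-fold limit in edgeR or DESeq2, against 0.989% of all genes.

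*ETS2* stood at 10.5, 10.4, 10.5, and 9.60 CPM in CSS. After 1 hour of EGF it stood at 24.0, 24.3, 22.8, and 21.1 CPM, and after 1 hour of NRG-1 at 17.5, 16.8, 19.0, and 17.1 CPM. All 8 libraries at 1 hour lay above CSS, and the EGF libraries lay above the NRG-1 libraries. *ETS2* rose over CSS by 1.17 (log2) with EGF (SE 0.08, adjusted *P* = 7.15e-13) and by 0.78 with NRG-1 (SE 0.08, adjusted *P* = 7.63e-09). By 4 hours it was 0.74 (adjusted *P* = 2.50e-09) and 0.57 (adjusted *P* = 5.25e-07), with levels of 16.3 to 17.9 and 12.8 to 16.6 CPM.

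*ELF3* stood at 33.2, 31.9, 36.2, and 33.3 CPM in CSS. After 1 hour of EGF it stood at 64.7, 62.3, 60.3, and 60.0 CPM, and after 1 hour of NRG-1 at 40.8, 41.6, 41.2, and 43.1 CPM. The 3 groups did not overlap. *ELF3* rose by 0.88 (log2) with EGF (SE 0.05, adjusted *P* = 3.13e-13) and by 0.31 with NRG-1 (SE 0.05, adjusted *P* = 0.00024). By 4 hours *ELF3* no longer differed from CSS at the threshold, with 0.07 (adjusted *P* = 0.332) and 0.06 (adjusted *P* = 0.397). Its rise at 1 hour of NRG-1 did not pass in batch 2 alone (0.28, adjusted *P* = 0.153) or in limma on TPM.

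*ERF* stood at 29.0, 33.4, 32.9, and 31.1 CPM in CSS. After 1 hour of EGF it stood at 61.0, 59.0, 56.5, and 57.6 CPM, and after 1 hour of NRG-1 at 61.0, 61.1, 54.0, and 47.9 CPM. Both ligand groups lay above CSS and overlapped with each other. *ERF* rose by 0.89 (log2) with EGF (SE 0.06, adjusted *P* = 8.29e-12) and by 0.82 with NRG-1 (SE 0.06, adjusted *P* = 7.48e-11). By 4 hours it was 0.42 with EGF (adjusted *P* = 3.02e-06) and 0.15 with NRG-1 (adjusted *P* = 0.0574). The NRG-1 value passed under 6 of 20 alternatives. With the replicate block it was 0.15 (adjusted *P* = 0.0325), and in DESeq2 0.16 (adjusted *P* = 0.0438). It passed with at least 10 counts in every library (adjusted *P* = 0.0466) and in batch 1 alone (adjusted *P* = 0.0324). It also passed without batch 2 replicate 1 of CSS (0.0411) or batch 2 replicate 2 of NRG-1 4 hours (0.0298).

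At 4 hours of EGF, 7 of the 8 genes passed (5 higher and 2 lower), against 49.2% of all genes, and 3 passed the 2-fold limit (*ETV4*, *ETV5*, and *EHF*), against 9.56%. At 4 hours of NRG-1, 6 of the 8 passed (4 higher and 2 lower), against 42.6% of all genes, and 2 passed the 2-fold limit (*ETV4* and *ETV5*), against 7.41%. The 3 PEA3 genes were among those higher with each ligand. The ligand groups share their CSS libraries. The median log2 fold change over the 8 genes was 0.43 with EGF and 0.27 with NRG-1, and the median over all genes tested was -0.02 and -0.01.

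*EHF*, an epithelial ETS factor, fell with time. It stood at 428.8, 474.2, 433.2, and 446.8 CPM in CSS, at 399.6, 421.4, 359.4, and 380.7 CPM after 1 hour of EGF, and at 201.1, 213.5, 216.9, and 219.8 CPM after 4 hours. With NRG-1 it stood at 387.7, 368.7, 381.9, and 398.8 CPM after 1 hour and at 232.6, 223.8, 235.6, and 234.4 CPM after 4 hours. Every library with either ligand at 1 hour or 4 hours lay below every CSS library. Its log2 fold change was -0.19 (SE 0.05, adjusted *P* = 0.00448) and -0.21 (SE 0.05, adjusted *P* = 0.00213) at 1 hour, and -1.07 (SE 0.05, adjusted *P* = 3.17e-17) and -0.94 (SE 0.05, adjusted *P* = 6.65e-16) at 4 hours, with EGF and NRG-1 respectively. At 1 hour the change did not pass in batch 2 alone or in limma on TPM with either ligand, nor in batch 1 alone with EGF.

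*ETS1* was low throughout, at 1.73 to 2.03 CPM in CSS. It stood at 1.48, 1.28, 1.26, and 1.12 CPM after 4 hours of EGF, below all CSS libraries, and at 1.55, 1.26, 1.54, and 1.73 CPM after 4 hours of NRG-1, where the highest library reached the CSS range. *ETS1* had -0.59 (log2) with EGF (SE 0.11, adjusted *P* = 2.96e-05) and -0.34 with NRG-1 (SE 0.11, adjusted *P* = 0.00909). The NRG-1 value was -0.24 (adjusted *P* = 0.0699) without batch 1 replicate 2 of NRG-1 4 hours, and -0.52 and -0.16 (adjusted *P* = 0.601) in batch 1 and batch 2 alone. On log2(TPM + 1) in limma, *ETS1* had -0.23 with EGF and -0.17 with NRG-1, and both passed.

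When EGF was tested directly against NRG-1, the PEA3 genes did not pass at any time. At 4 hours the differences of EGF from NRG-1 were 0.05 for *ETV1* (95% interval -0.07 to 0.17), -0.01 for *ETV4* (-0.29 to 0.28), and -0.12 for *ETV5* (-0.42 to 0.18). At 1 hour the interval of *ETV4* was wide, -0.15 to 1.31. A difference that does not pass is not shown to be absent, and these intervals give the sizes that remain possible.

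Other ETS genes did differ between the ligands. At 1 hour 2 of the 8 genes passed, both higher with EGF, against 1.06% of all genes. They were *ELF3* (0.57, 95% interval 0.46 to 0.68, adjusted *P* = 1.06e-07) and *ETS2* (0.39, 0.24 to 0.54, adjusted *P* = 0.00255). *ELF3* passed in each batch alone (0.63 and 0.52), whereas *ETS2* gave 0.50 in batch 1 and 0.29 (adjusted *P* = 0.908) in batch 2. At 4 hours 1 of the 8 passed, against 1.66% of all genes. It was *ERF*, higher with EGF by 0.27 (0.14 to 0.40, adjusted *P* = 0.0251). That call was lost without any of 6 of the 8 libraries (all 4 of EGF, and replicate 2 of NRG-1 in either batch), with adjusted *P* values from 0.0593 to 0.0898, and it was lost in each batch alone.

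Whether the change from 1 hour to 4 hours depended on the ligand was tested as an interaction. *ELF3* alone of the 8 genes passed, against 0.506% of all genes, since it fell by 0.81 with EGF and by 0.25 with NRG-1 on the log2 scale, a difference of -0.56 (SE 0.08, adjusted *P* = 0.000163). For *ETV1*, *ETV4*, and *ETV5* the interaction was 0.02, -0.59 (SE 0.38), and 0.05, with adjusted *P* values of at least 0.984.

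Serum set another pattern. Against CSS, 4 of the 8 genes passed in FBS (*EHF* higher, and *ETV5*, *ETV1*, and *ELF3* lower), against 52.7% of all genes. Only *ETV5* passed the 2-fold limit, against 8.71%. *EHF* stood at 767.2, 773.4, 781.4, and 730.5 CPM in FBS, above every other library of the series, and rose by 0.78 on the log2 scale (SE 0.05, adjusted *P* = 3.19e-14). *ELF3* stood at 25.2 to 30.4 CPM, below all CSS libraries, with -0.31 (SE 0.06, adjusted *P* = 2.97e-05).

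*ETV5* stood at 0.358, 0.419, 0.486, and 0.403 CPM in FBS, below all CSS libraries, which gave -1.16 on the log2 scale (SE 0.21, adjusted *P* = 3.06e-05). It was -1.64 in batch 1 and -0.63 (adjusted *P* = 0.0717) in batch 2. Without batch 1 replicate 1 of FBS it was -0.997 (adjusted *P* = 0.000457), just inside the 2-fold limit. *ETV4* held 4, 1, 5, and 2 counts in FBS, and its log2 fold change of -0.76 did not pass (adjusted *P* = 0.253).

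*ETV1* stood at 328.5 and 323.2 CPM in FBS in batch 1 and at 272.1 and 245.9 CPM in batch 2, so that the first pair overlapped with CSS and the second lay below it. Its log2 fold change of -0.16 (SE 0.06, adjusted *P* = 0.022) rested on batch 2. It was -0.01 (adjusted *P* = 0.891) in batch 1 and -0.32 (adjusted *P* = 0.0116) in batch 2, and it did not pass without either FBS library of batch 2 (adjusted *P* = 0.0791 and 0.147). In limma on TPM, *ETV1* passed with -0.36.

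Set directly against FBS, all 8 genes passed at 4 hours of EGF, against 62.4% of all genes, and all 8 at 4 hours of NRG-1, against 57.2%. The 4-hour groups were in CSS, so that serum and ligand both differ here and their parts cannot be told apart. In each comparison 6 genes were higher in the 4-hour group and 2, *EHF* and *ETS1*, were lower. *EHF* was lower by a log2 fold change of -1.84 with EGF and -1.72 with NRG-1, and *ETV5* was higher by 3.81 and 3.93. *ETV1* was higher by 0.59 and 0.54, and *ETV4* by 8.01 and 8.02. In batch 2 alone, *ETS1* (-0.31, adjusted *P* = 0.161) and *ERF* (0.15, adjusted *P* = 0.238) did not pass with NRG-1.

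Across all 8 groups the order of levels had few steps. For *ETV1* and *ETV4*, 1 of the 7 pairs of neighbouring groups passed, the step from the 4-hour groups to the next. *ETV5* had 2 such steps, below 4 hours and above FBS. *ELF3* and *EHF* had 3 each, *ETS2* and *ERF* had 2 each, and *ETS1* had 1, from CSS to NRG-1 4 hours. The 2 groups at 5 minutes and CSS were never separated by a passing step where they were neighbours.

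The remaining 20 ETS genes of the table included 18 that were tested. At 1 hour 2 of the 18 passed with EGF and 1 with NRG-1, all higher, beside 9.51% and 6.73% of all genes, so that these counts lie near the background. At 4 hours of EGF 11 passed (5 higher and 6 lower), beside 49.2% of all genes, and at 4 hours of NRG-1 10 passed (4 higher and 6 lower), beside 42.6%, and these counts too are read as no more than a description. The median log2 fold change at 4 hours was -0.16 and -0.02, against -0.02 and -0.01 over all genes. From 1 hour to 4 hours, 5 of the 18 passed higher and 7 lower with EGF, beside 44.0% of all genes. With NRG-1, 6 passed higher and 6 lower, beside 37.5%. *ELF4*, an ETS activator, stood at 3.84 to 5.28 CPM in CSS and at 15.2 to 21.7 CPM after 4 hours of EGF, a rise of 2.02 on the log2 scale (SE 0.14, adjusted *P* = 5.31e-13). *ETV7* rose by 1.54 (adjusted *P* = 0.000134) from at most 0.115 CPM. *ELF5*, an ETS factor of secretory epithelium, fell by 1.17 (adjusted *P* = 5.44e-05), and *SPIC* had -1.93 (adjusted *P* = 0.0297) at no more than 0.170 CPM in CSS. Of the tested ETS genes, *ETV4* and *ETV5* had the largest rises at 4 hours of EGF, and *ELF4* came next.

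Regulators of the PEA3 factors were read from a list of 9 genes, of which 8 were tested and *COP1* was not analysed here. Against CSS, *CIC* itself had log2 fold changes of 0.28 and 0.19 at 1 hour and -0.12 and -0.24 at 4 hours of EGF and NRG-1. None of these passed. From 1 hour to 4 hours *CIC* fell by -0.40 with EGF (adjusted *P* = 0.0144) and by -0.43 with NRG-1 (adjusted *P* = 0.0111). Both falls passed, where 44.0% and 37.5% of all genes passed. *ATXN1*, whose product binds CIC as a corepressor, stood at 30.2 to 34.1 CPM in CSS, at 124 to 142 CPM after 4 hours of EGF, and at 83.1 to 111 CPM after NRG-1. It rose by 2.06 (SE 0.12, adjusted *P* = 1.28e-14) and 1.60 (SE 0.12, adjusted *P* = 3.54e-12). Its relative *ATXN1L* rose by 0.44 at 1 hour of EGF (adjusted *P* = 0.0105) and had 0.17 at 1 hour of NRG-1 (adjusted *P* = 0.499). For *ATXN1L* the difference between the ligands at 1 hour, 0.27, did not pass (adjusted *P* = 0.528). *ATXN1* was higher with EGF than with NRG-1 by 0.46 at 4 hours (adjusted *P* = 0.0297).

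*TRIB1*, a pseudokinase that brings substrates to COP1, rose at 1 hour by 3.23 with EGF (SE 0.08, adjusted *P* = 5.28e-23) and 2.39 with NRG-1 (SE 0.07, adjusted *P* = 3.70e-20). By 4 hours it had 0.55 (adjusted *P* = 2.04e-07) and 0.02 (adjusted *P* = 0.830). *TRIB1* was higher with EGF than with NRG-1 by 0.83 at 1 hour (adjusted *P* = 8.50e-09) and by 0.53 at 4 hours (adjusted *P* = 3.94e-05). *TRIB2* did not pass in these comparisons. Of the subunits of the COP1 ligase, *DET1* had -0.33 and -0.41 at 4 hours (adjusted *P* = 0.000103 and 8.24e-06), *CUL4A* had 0.25 (adjusted *P* = 0.000121) and 0.12 (adjusted *P* = 0.0516), and *DDB1* did not pass. In FBS 6 of the 8 genes were lower than in CSS, where 52.7% of all genes passed in either direction, *ATXN1* by the most (-1.25, adjusted *P* = 5.40e-10), with *CIC* at -0.40 (adjusted *P* = 0.013), *ATXN1L* at -0.34, *TRIB1* at -0.48, *DDB1* at -0.26, and *DET1* at -0.24.

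A list of 12 genes was chosen from general knowledge, with earlier results of these data known, as outputs of ERK that CIC represses. Of these, 11 were tested. They moved with the PEA3 genes at 4 hours but mostly earlier. Whether CIC represses them in LNCaP was not tested, and the counts that follow are a description only. At 1 hour 9 of the 11 passed with each ligand, all higher, beside 9.51% of all genes with EGF and 6.73% with NRG-1. The 2-fold limit was passed by 8 with EGF and 5 with NRG-1, beside 1.72% and 0.989% of all genes. The median log2 fold change was 1.42 and 0.94 at 1 hour and 1.60 and 1.15 at 4 hours. At 4 hours all 11 passed with each ligand, 10 higher and 1 lower, beside 49.2% and 42.6% of all genes. The 1 that fell, *SPRED3*, named after its values were seen, had -0.70 and -0.64. When EGF was tested directly against NRG-1, 5 of the 11 passed at 1 hour and 3 at 4 hours, all higher with EGF. These counts stand beside 1.06% and 1.66% of all genes.

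*DUSP6*, the phosphatase that inactivates ERK, stood at 0.630 to 0.862 CPM in CSS, 12.5 to 14.4 CPM at 1 hour of EGF, and 22.9 to 31.7 CPM at 4 hours, with log2 fold changes of 4.19 and 5.24. *SPRY4*, an inhibitor of receptor signalling, had 2.89 and 3.45, and its relative *SPRED1* had 0.56 and 1.83. *FOSL1*, an AP-1 subunit, went the other way in time, with 5.66 at 1 hour and 3.81 at 4 hours. *ETV4* and *ETV5* had 1.24 and 0.13 at 1 hour of EGF beside these values.

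A list of 18 genes known as targets of PEA3 or ETS factors in other cells included 15 that were tested. This list too was chosen with earlier results of these data known. Of the 15, *MMP1*, *MMP3*, and *PLAU*, the last named after its values were seen, held at most 1 count per CSS library. They had enough counts to be tested only through the ligand groups where they were high, so that they could only be higher there, and they are left out of these counts. Of the other 12, 8 passed at 1 hour of EGF, beside 9.51% of all genes, and 6 at 1 hour of NRG-1, beside 6.73%, all higher. At 4 hours 9 and 8 of the 12 passed, beside 49.2% and 42.6% of all genes, all higher, and 7 passed the 2-fold limit with each ligand, beside 9.56% and 7.41%. A median over all 15 genes at 4 hours, with those 3 set against a floor of 3 counts per library, fell on *MMP3* itself. Its log2 values there, 2.34 with EGF and 1.38 with NRG-1, are bounds set by that floor. They do not describe the other 12 genes.

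*MMP1*, a collagenase, held at most 1 count per CSS library, 195 to 282 counts at 1 hour of EGF, and 697 to 1676 counts at 4 hours. After 4 hours of NRG-1 its libraries held 190 to 370 counts. *MMP10*, a stromelysin, stood at 0.344 to 0.449 CPM in CSS, 38.5 to 44.5 CPM at 1 hour of EGF, and 122 to 292 CPM at 4 hours, with log2 fold changes of 6.72 and 9.03. *MMP3*, its neighbour in the family, had 0 counts in all CSS libraries and 5 to 29 counts at 4 hours of EGF, where it was at least 5.06-fold higher, taking 3 counts per library as the floor. *CXCR4*, a chemokine receptor, stood at 0.358 to 0.472 CPM in CSS and at 22.3 to 38.0 CPM at 4 hours of EGF, with 4.40 at 1 hour and 6.18 at 4 hours.

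**Figure D4:**
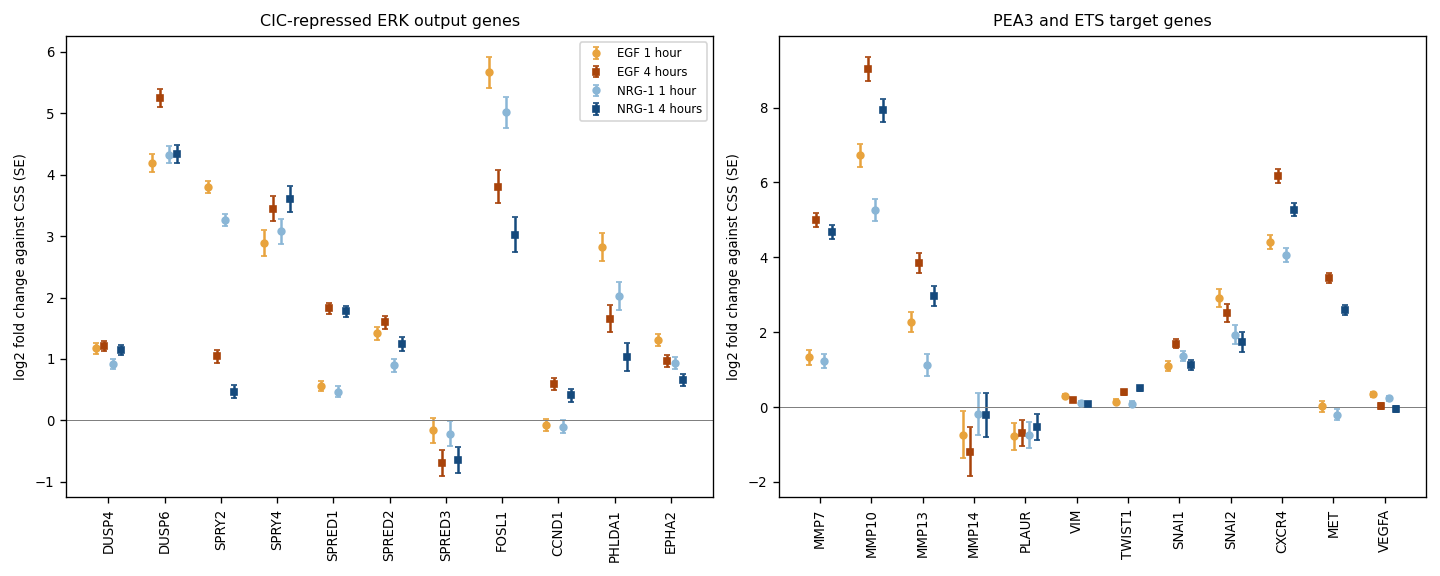
Log2 fold change against CSS (SE bars) at 1 hour (circles) and 4 hours (squares). EGF is in orange and brown, and NRG-1 in light and dark blue. Shown are the tested genes listed as CIC-repressed (left) and the known PEA3 or ETS targets (right). *MMP1*, *MMP3*, and *PLAU* are left out, since their CSS libraries held at most 1 count. *FOSL1* is higher at 1 hour than at 4 hours, and *MMP10* and *CXCR4* are higher at 4 hours.

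The neighbours of *ETV1* at its rearranged and intact positions were read beside it. Of a list of 6 genes, 4 were tested. None of *MIPOL1*, *FOXA1*, *DGKB*, and *AGMO* passed against CSS with either ligand at any time, and their log2 fold changes at 4 hours of EGF were -0.05, -0.08, 0.03, and -1.23 (SE 0.77, at no more than 0.0726 CPM in CSS). *FOXA1*, a pioneer factor of luminal cells, stood at 497 to 550 CPM in CSS and at 476 to 508 CPM after 4 hours of EGF, while *ETV1* had risen in every library. In FBS *FOXA1* had -0.42 (adjusted *P* = 9.55e-08) and *MIPOL1* had -0.23 (adjusted *P* = 0.00229). *ETV1* had -0.16, which rested on batch 2, with -0.01 in batch 1 alone and -0.32 in batch 2 alone. *DGKB*, next to the intact copy, had 0.20 in FBS (adjusted *P* = 0.0317).

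Androgen-responsive genes were read because CSS lowers androgen. All 8 of a list of 8 were higher in FBS than in CSS, 7 past the 2-fold limit, beside 52.7% and 8.71% of all genes in either direction, with a median log2 fold change of 2.47. At 4 hours of EGF 5 of the 8 passed (2 higher and 3 lower), beside 49.2% of all genes, and with NRG-1 5 passed (1 higher and 4 lower), beside 42.6%. *KLK2*, a prostate protease, had log2 fold changes of 3.99 in FBS and -1.37 at 4 hours of EGF. *EHF*, with 0.78 and -1.07, had the same signs as *KLK2*. *FKBP5*, an androgen-induced cochaperone, had 1.75 and 1.26 and so was higher in both.

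The genes whose group means followed each PEA3 gene most closely were named by Pearson's *r* of log2(mean CPM + 0.1) over the 8 groups, as a description of points that share the same libraries. Over 11947 candidates, *TNIK* (*r* = 0.997), *MBP* (0.996), and *ERBB2IP* (0.996) came first for *ETV1*. Their levels rose further than that of *ETV1*, *TNIK* from 6.83 ± 1.71 to 44.9 ± 4.92 CPM and *ERBB2IP* from 160.0 ± 15.2 to 523.5 ± 19.1 CPM between CSS and 4 hours of EGF. Over 11948 candidates, *C9orf41* (0.999), *KNDC1* (0.998), and *STMN3* (0.998) came first for *ETV4*, and *FAM131B* (0.997), *FRMD6* (0.996), and *FAM3C* (0.996) for *ETV5*. *STMN3* stood at 8.57 ± 1.71 CPM in CSS and 57.8 ± 10.6 CPM after 4 hours of EGF, and *FAM131B* at 1.26 ± 0.534 and 17.1 ± 4.29 CPM.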

How the data were processed

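Polyadenylated RNA of LNCaP cells was sequenced with its strand recorded in 32 libraries. Per the labels and methods, the authors trimmed reads with Trimmomatic 0.36 and ran RSEM around STAR 2.7.0f against hg19, and they deposited an expected count and a TPM value per gene symbol and library, with no pooling of replicates. Both units were used as deposited. Expected counts, of which 11.2% were not whole, were rounded. Genes that reached 5 counts in 3 or more libraries were tested with the quasi-likelihood test of edgeR 4.0.16 (R 4.3.3), with TMM scaling and terms for group and batch over all 32 libraries, and *P* values were adjusted over all genes tested. CPM are TMM-scaled. At these depths counting error is small except for genes with few counts, such as *ETV4* in CSS.

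Groups, batches, and replicates came from the labels. Deviations of libraries with the same batch and replicate number from their group means correlated with *r* of 0.133 to 0.571 in 112 of 112 pairs. These deviations still hold the batch, so that a shared batch alone can give such values. After the batch was removed, *r* ran from -0.155 to 0.371 and 35 of 112 pairs exceeded 0.1. Whether replicate numbers pair libraries within a batch is therefore not settled. No 2 libraries of a group agreed within sampling noise.

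Alternatives were DESeq2 1.42.0, its size factors in edgeR, no filter, a minimum of 10 counts in all libraries, no batch term, a replicate block, the groups compared alone, each batch alone, limma 3.58.1 on log2(TPM + 1) or log2(TPM + 0.1) with TPM of at least 0.5 in 3 libraries, the former without that filter, and each library left out. The fits were tested on simulated data.

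The members and gene lists were chosen with earlier results of these data known. Named were the 8 members, the 3 genes most like each PEA3 gene in pattern (among genes with a mean log2 CPM of at least 1), every tested *ETV1* neighbour and PEA3 regulator, and, of other lists, up to 4 genes past the 2-fold limit with a ligand, by size at 4 hours of EGF. One gene that this rule names is not reported here. Promoter sequences are RefSeq's on GRCh38.p14, which is not the build of the counts, and were matched by symbol for 5 of the 8 members, without *ETV4*, *ETV5*, and *ETS1*.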

Additional observations from a re-analysis of the deposited data

Results flagged for a closer look

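Of 64 sets of 4 libraries (8 genes in 8 groups), 1 held a library far from the others by Dixon's criterion, whereas chance alone would give about 3 (1 in 20). It was *ETS2* in CSS batch 2 replicate 2, at 9.60 CPM against 10.4 to 10.5 CPM in the other 3 libraries.

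The change of *ELF3* from 1 hour to 4 hours differed between the ligands by -0.56 on the log2 scale in the interaction test. *ELF3* passed in that test in batch 1 alone (-0.54, adjusted *P* = 0.00987) and had -0.59 (adjusted *P* = 0.294) in batch 2 alone.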

How the results depend on the processing

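Over the 8 genes and 15 comparisons, 2449 values were recomputed under the alternatives. Of these, 2374 kept their direction and their side of the threshold or stayed below it, 64 lost the threshold, 11 gained it, and no value that passed changed sign. The number of genes past the 2-fold limit stayed within 1.5 times its value under every alternative in 10 of the 15 comparisons. At 1 hour of EGF, 2 genes became 1, by the loss of *ETV4*, with at least 10 counts in every library (which removes *ETV4*), without the batch term, in batch 1 or batch 2 alone, in limma on TPM at either pseudocount or without the filter, with the 2 groups alone, and over libraries left out in turn (1 to 2). In FBS against CSS, 1 became 0, by *ETV5*, in batch 2 alone, in all 3 limma fits (-0.96 on log2(TPM + 0.1)), and over libraries left out (0 to 1). The filter of at least 10 counts removed *ETV4* and left 1 of 2 at 4 hours of NRG-1 against CSS and at 4 hours against 1 hour with either ligand.

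The replicate block groups libraries by batch and number, as if these paired them. With it, the counts past the 2-fold limit were 2 at 1 hour of EGF, 3 at 4 hours of EGF, 2 at 4 hours of NRG-1, and 1 in FBS. It changed 1 call, that of *ERF* at 4 hours of NRG-1 (0.15, adjusted *P* = 0.0325). On log2(TPM + 1) in limma, fold changes of the low genes *ETV4*, *ETV5*, and *ETS1* at 4 hours shrank by over 1.5 times in each comparison against CSS, 1 hour, and FBS, as that pseudocount does by construction for low TPM, and kept their direction (*ETV4* 3.10 and 3.14 against 1 hour). Depth limits *ETV4*, *SPIC*, and *AGMO*, which held few counts in CSS. Batch 2 alone, with 2 libraries a group, lost 15 calls and batch 1 alone 5.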
